A study of Mus musculus with 8 samples.

Results

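Yolk sac cells that carried the transcripts of macrophage precursors (A2 cells) were compared with yolk sac cells that carried those of erythromyeloid progenitors (EMP cells). The cells were chosen by their own transcripts. A well entered when it held at least 5000 transcripts in all and when its summed Apoa1, Apoa4, Ttr and Rbp4 transcripts, which mark yolk sac endoderm, lay below the median of the wells of that depth in libraries of its kind. In the libraries labelled as A1 and A2 cells a well also had to hold Cx3cr1 and Csf1r transcripts and none of S100a8, S100a9 or Ccr2. In the libraries labelled as EMP cells it had to hold Kit and Runx1 transcripts and none of Cdh5 or Plvap. The choice left 122 of 811 wells of at least 5000 transcripts, out of 1536 wells in the series. Of these, 74 of 306 were gated A2 wells, with 31, 19, 8 and 16 in A1/A2 libraries 1 to 4. The other 48 of 505 were gated EMP wells, with 10, 13, 13 and 12 in EMP libraries 1 to 4.

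The series holds 8 plate libraries, 4 of A1 and A2 cells and 4 of EMP cells. They are numbered 1 to 4 in each group by the P number of their titles, which both groups share. Whether libraries of the same P number share animals is not said. Both groups are wild type (C57BL/6N) and untreated, and were taken from extraembryonic yolk sacs at embryonic day 9.5. Cells were stained for CD45, the pan-leukocyte surface protein, and CD11b, an integrin chain of myeloid cells, and CD45-positive cells were sorted singly into plates for mCEL-Seq2, which counts tagged 3' ends. All 8 libraries carry 1 batch label, and per the labels the EMP libraries were run beside the others without entering the published work. The labels do not say that libraries came from separate animals, so p-values measure the spread between these libraries, which may be technical. The same well names recur in every library, so names say nothing on shared cells. No doublet caller was run, since cells were sorted singly.

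Erythromyeloid progenitors arise from the hemogenic endothelium of the yolk sac and are known to give rise to erythroid cells, megakaryocytes, granulocytes and macrophages. On the path to macrophages, Kit-positive progenitors pass through an A1 stage, lose Kit, and gain the fractalkine receptor Cx3cr1 and the receptor for colony stimulating factor 1, Csf1r, at the A2 stage. Cells of that stage seed the embryo, and in the brain they are the known source of microglia and of macrophages at its borders. The comparison asks which other genes separate the ends of this path at a single time point.

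The gating genes describe the choice and were not tested. Csf1r transcripts in the gated A2 wells summed to 377, 427, 456 and 422 CPM in libraries 1 to 4 (CPM, counts per 1000000 summed transcripts of the tested genes, TMM-scaled), against 85.0, 0, 41.9 and 22.5 CPM in the gated EMP wells of libraries 1 to 4. For Cx3cr1 the sums were 261, 293, 124 and 265 CPM against 10.3, 3.19, 15.0 and 3.76 CPM. Kit, the receptor for stem cell factor, stood at 100, 108, 150 and 158 CPM in the gated EMP wells and at 10.5, 10.8, 0 and 10.4 CPM in the gated A2 wells. Runx1, the transcription factor required for the emergence of these progenitors, was present on both sides, at 178, 207, 257 and 233 CPM in gated EMP wells and at 101, 87.6, 92.4 and 128 CPM in gated A2 wells.

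The sides overlapped in what the gates did not ask for. A Kit transcript was found in 16 of 74 gated A2 wells, and a Csf1r or Cx3cr1 transcript in 14 of 48 gated EMP wells. Some members rested on few transcripts: 9 gated A2 wells held a single Cx3cr1 transcript and 11 gated EMP wells a single Kit transcript, beside medians of 7 and 3. The limit on endoderm transcripts differed between the kinds of library, 22.08 per 10000 transcripts for A1/A2 libraries and 70.97 for EMP ones. The member nearest to it lay at 21.28 on the A2 side and at 64.18 on the EMP side, and the nearest wells outside lay at 23.44 and 74.34. Without that limit, 111 A2 wells and 63 EMP wells met the other conditions. The lowest total of a gated well was 5469 transcripts on the A2 side and 6586 on the EMP side. Among wells below the minimum that met the conditions on required and absent genes, the deepest held 4853 and 956.

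Depth and RNA composition differed between the sides. The median gated A2 well held 39028 transcripts and the median gated EMP well 25402, and the summed transcripts per library ranged from 329511 to 1124423 for A2 and from 285678 to 425058 for EMP. Mitochondrial transcripts made up 14.22% to 16.07% of the A2 sums and 19.89% to 21.7% of the EMP sums, with no overlap. Of 15 mitochondrial genes tested, 12 were lower in gated A2 wells, and of 71 ribosomal protein genes tested, 33 were higher and 2 lower, beside 11.3% higher and 9.98% lower of all genes tested with edgeR. When both sides had 1 limit on endoderm transcripts, a setting chosen after the data were seen, 3 of 15 mitochondrial genes were lower. Of 71 ribosomal protein genes, 23 were then higher and 3 lower. The shares of all genes tested in that setting were 9.7% higher and 6.48% lower. Depth and composition moved with the comparison, and their part in the results below was not tested.

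Of 5473 genes tested, 1163 passed edgeR's quasi-likelihood test at an adjusted p of 0.05, which is 21.2%. They divided into 617 genes higher in gated A2 wells (11.3% of those tested) and 546 lower (9.98%). At least 2-fold differences were found for 265 of the higher (4.84%) and 224 of the lower genes (4.09%). A gene near 0 on one side could enter the test only through the other side and then had to differ, so the number of passing genes in a list of lineage genes is given as a description. Sums over wells also cannot tell fewer wells with a transcript from fewer transcripts per well. The plot of fold change against level shows that calls ran through the whole range of levels.

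**Figure D1:**
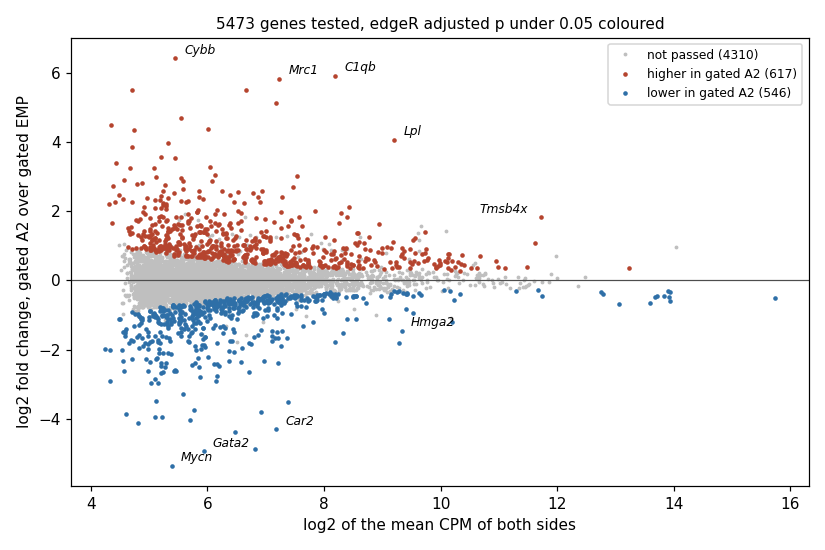
Fold change against level for the 5473 genes tested. The x axis is the log2 of the mean CPM of both sides and the y axis the log2 fold change of gated A2 over gated EMP sums (4 libraries each). Each point is a gene, red for the 617 that were higher, blue for the 546 that were lower and grey for the rest. Cybb and Mycn lie at the ends, at 6.42 and -5.35.

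The 12 genes with the largest differences toward A2 cells were Cybb, C1qb, Mrc1, Aif1, Ccl3, C1qc, Klf2, C3ar1, Igsf6, Lpl, Ly86 and Fcgr1, of which 3 are complement genes. C1qb, a chain of the complement recognition protein C1q, was at 562, 573, 765 and 392 CPM in gated A2 wells of libraries 1 to 4 and at 5.15, 9.56, 8.97 and 15.0 CPM in gated EMP wells. Every A2 library exceeded every EMP library by a wide margin (log2 fold change 5.90 ± 0.29, SE; adjusted p = 2.72e-10). C1qc, the partner chain, stood at 252, 266, 449 and 169 CPM against 18.0, 9.56, 0 and 0 CPM (5.12 ± 0.67, adjusted p = 0.00186). Both EMP values above 0 came from libraries 1 and 2, and without EMP library 1 the log2 fold change was 6.29. C3ar1, the receptor for the anaphylatoxin C3a, was at 101, 116, 210 and 66.9 CPM against 5.15, 6.37, 5.98 and 3.76 CPM (4.36 ± 0.51, adjusted p = 2.1e-05).

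Cybb encodes the catalytic chain of the NADPH oxidase with which phagocytes make superoxide. Its A2 values were 75.2, 66.1, 79.6 and 125 CPM, while 3 EMP libraries had none and EMP library 4 had 3.76 CPM, a single transcript. The ratio of the 237 A2 transcripts to that 1, scaled by the sums, was 112, with a 95% interval of 20 to 4450 that covers counting error only (edgeR adjusted p = 1.01e-08). Aif1, known as Iba1 and used to stain microglia, had 38.1, 35.1, 95.6 and 37.2 CPM against 2.57 CPM in EMP library 1 and 0 in the others. Its 121 A2 transcripts against 1 gave a ratio of 57.3 (10.1 to 2280; adjusted p = 7.71e-06). Without the single library that held its EMP transcript, Cybb and Aif1 each had none left on the EMP side. Igsf6, an immunoglobulin family receptor of myeloid cells, showed 141 transcripts against 3, a ratio of 22.3 (7.47 to 109; adjusted p = 4.84e-06). Its log2 fold change was 4.34, and 5.37 without EMP library 3.

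Mrc1, the mannose receptor that marks border macrophages, had 165, 204, 679 and 140 CPM against 5.15, 0, 5.98 and 7.52 CPM (log2 fold change 5.82 ± 1.16, adjusted p = 0.015). The library with the most was A1/A2 library 3, which has the fewest gated wells, and without it the log2 fold change was 5.17. Without EMP library 2 the adjusted p was 0.0532 at 5.45. Ccl3, a chemokine of activated macrophages, had 171, 140, 430 and 53.5 CPM against 2.57, 0, 12 and 0 CPM (5.49 ± 1.28, adjusted p = 0.0272). That call was lost without any 1 of 5 libraries, A1/A2 library 1 or any of the 4 EMP libraries (adjusted p 0.0552 to 0.0809), and without EMP library 3 the log2 fold change was 7.2. With 1 endoderm limit for both sides its adjusted p was 0.0549.

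Lpl, the lipoprotein lipase, reached 1220, 1580, 822 and 835 CPM against 149, 47.8, 23.9 and 33.8 CPM (4.05 ± 0.54, adjusted p = 0.00267). The EMP values were led by library 1, without which the log2 fold change was 4.99, and with 1 endoderm limit it was 5.23. Klf2, a transcription factor that restrains myeloid activation, had 101, 66.1, 156 and 40.1 CPM against 7.72, 0, 2.99 and 0 CPM (4.70 ± 0.78, adjusted p = 0.00188, and 6.01 without EMP library 1). Ly86, the partner of the receptor RP105, had 74.2, 51.2, 86.0 and 93.6 CPM, and of the EMP libraries library 1 alone had transcripts, at 15.4 CPM (adjusted p = 7.88e-05). Fcgr1, the high-affinity receptor for immunoglobulin G, had 64.7, 67.4, 95.6 and 46.1 CPM against 2.57, 0, 15.0 and 3.76 CPM (3.55 ± 0.46, adjusted p = 3.75e-06, and 4.86 without EMP library 3). For all 12 leading higher genes the libraries of both sides did not overlap. The rule that named them asked for this, and 12.1% of all tested genes met it in this direction.

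Toward EMP cells, the largest difference was that of Mycn. Mycn, the Myc family member of early progenitors, had 2.85, 0, 0 and 2.97 CPM in gated A2 wells and 90.1, 66.9, 86.7 and 86.4 CPM in gated EMP wells (log2 fold change -5.35 ± 0.41, adjusted p = 5.77e-10). Gata2, a zinc finger factor required in blood stem and progenitor cells, had 2.85, 2.7, 6.37 and 4.46 CPM against 72.1, 226, 126 and 48.9 CPM (-4.94 ± 0.62, adjusted p = 0.000274). Both factors were close to the level of a few transcripts in every A2 library. Ikzf2, an Ikaros family factor, had 11.4, 4.04, 0 and 8.92 CPM against 92.7, 159, 83.7 and 78.9 CPM (-3.76 ± 0.36).

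F2r, the thrombin receptor, had 3.81, 10.8, 3.19 and 10.4 CPM against 111, 376, 263 and 120 CPM (-4.86 ± 0.64, adjusted p = 0.00186). Spns2, the exporter of sphingosine 1-phosphate, had 6.66, 8.09, 6.37 and 10.4 CPM against 170, 194, 141 and 173 CPM (-4.37 ± 0.24, adjusted p = 9.16e-13). Car2, a carbonic anhydrase raised early in erythroid cells, had 12.4, 16.2, 12.7 and 13.4 CPM against 237, 334, 233 and 297 CPM. It had the smallest p of the leading genes (-4.30 ± 0.21, adjusted p = 5.33e-14). Adgrg1, an adhesion receptor of blood stem cells, had 14.3, 8.09, 9.56 and 29.7 CPM against 227, 194, 218 and 271 CPM (-3.82 ± 0.25). Gucy1a3, a chain of soluble guanylate cyclase, Timp3, an inhibitor of metalloproteinases, and Ctla2a, a cathepsin inhibitor, were also among the 12, at -4.13 ± 0.45, -3.96 ± 0.49 and -3.95 ± 0.40 (-4.68 for Ctla2a without A1/A2 library 2). Timp3 was at 45.3 (A1/A2) and 72.3 CPM (EMP) in endoderm-rich wells, beside a mean of 65.4 CPM in gated EMP wells, and was not tested with 1 endoderm limit. Libraries of both sides did not overlap in these 12 either, by the same rule, and 11.2% of all tested genes met it in this direction.

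**Figure D2:**
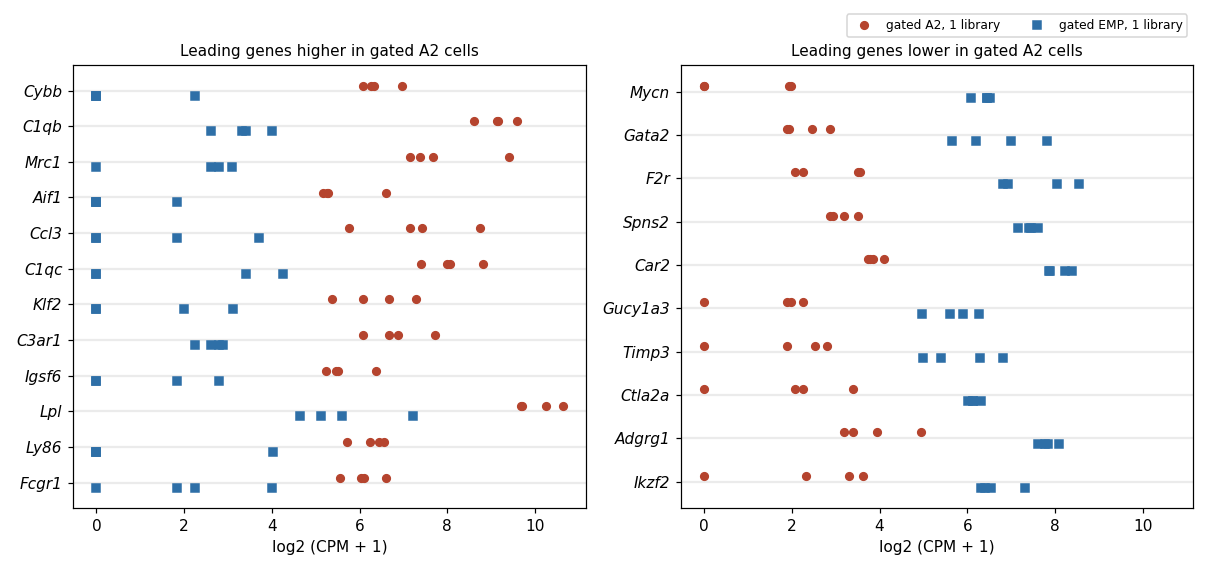
Level per library of the 12 leading higher genes and of 10 of the 12 leading lower genes. The x axis is log2 of CPM plus 1, red circles are the gated A2 sums of the 4 A1/A2 libraries and blue squares the gated EMP sums of the 4 EMP libraries. In each row the symbols of both sides are apart, and several EMP libraries sit at 0 for Cybb, Aif1, Ccl3, C1qc, Klf2, Igsf6 and Ly86.

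Promoters of the leading pair in each direction are shown so that their letters can be read beside the lineage factors reported further on. The stretches were read from RefSeq (GRCm38.p6) 5' to 3' on the strand of the gene. They start 250 bases before the annotated start and end before it or, for Mycn, before an upstream exon, so they lie outside annotated exons. Capitals mark GAGGAA, the core bound by the myeloid factor PU.1 (it holds the GGAA shared by all ETS factors), and AGATAA, a core bound by GATA factors, each on either strand.
Cybb, chrX:9469325-9469574, minus strand: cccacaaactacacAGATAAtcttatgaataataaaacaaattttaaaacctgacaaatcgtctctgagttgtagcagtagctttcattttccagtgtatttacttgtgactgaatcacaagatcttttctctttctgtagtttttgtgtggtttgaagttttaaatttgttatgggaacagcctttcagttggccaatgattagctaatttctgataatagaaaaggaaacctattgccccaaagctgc
C1qb, chr4:136886201-136886450, minus strand: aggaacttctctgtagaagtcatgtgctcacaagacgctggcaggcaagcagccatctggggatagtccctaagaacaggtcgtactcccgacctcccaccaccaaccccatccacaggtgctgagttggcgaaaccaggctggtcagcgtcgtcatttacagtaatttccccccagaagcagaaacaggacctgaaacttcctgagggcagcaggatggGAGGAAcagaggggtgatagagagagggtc
Mycn, chr12:12941915-12942086, minus strand: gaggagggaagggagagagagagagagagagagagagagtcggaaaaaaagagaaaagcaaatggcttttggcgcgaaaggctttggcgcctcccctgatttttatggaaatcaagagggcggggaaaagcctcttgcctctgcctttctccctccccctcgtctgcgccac
Gata2, chr6:88193641-88193890, plus strand: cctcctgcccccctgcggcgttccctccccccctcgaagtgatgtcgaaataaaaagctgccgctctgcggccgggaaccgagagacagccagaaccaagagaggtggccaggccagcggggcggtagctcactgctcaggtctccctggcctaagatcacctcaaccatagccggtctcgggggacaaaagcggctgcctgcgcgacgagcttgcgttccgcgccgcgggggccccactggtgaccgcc
The stretch of Cybb held an AGATAA and that of C1qb a GAGGAA, while those of Mycn and Gata2 held neither. In the longer window from 250 bases before to 50 after the start, Cybb held GAGGAA as well. Over such windows GAGGAA was found in 31.3% of all 27025 genes with an entry, in 33.9% of 433 genes higher in gated A2 wells and in 32.3% of 418 lower genes. AGATAA was found in 12.7% of all genes, in 6.8% of 4197 tested genes, in 8.3% of the higher and in 8.4% of the lower genes. These shares are a description of letters, and binding was not measured.

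Among macrophage surface genes, 5 of 6 tested of 18 listed were higher in gated A2 wells and none lower (11.3% and 9.98% of all tested genes). Ptprc, which encodes CD45, had 147, 147, 105 and 214 CPM against 72.1, 19.1, 44.9 and 15.0 CPM (1.96 ± 0.38, adjusted p = 0.00431), and EMP libraries 1 and 3 were the higher ones of their side. Itgam, which encodes CD11b, had 61.8, 75.5, 51.0 and 56.5 CPM against 28.3, 3.19, 23.9 and 15.0 CPM (1.75 ± 0.33, adjusted p = 0.000284). Sirpa, the receptor for the signal CD47, had 203, 205, 213 and 171 CPM against 36.0, 38.2, 44.9 and 45.1 CPM (2.27 ± 0.18, adjusted p = 1.27e-09), and Cd68, a lysosomal glycoprotein of macrophages, a log2 fold change of 3.25 ± 0.46. Lyve1, a hyaluronan receptor of border macrophages, did not pass, at 25.7, 16.2, 363 and 22.3 CPM against 36.0, 9.56, 35.9 and 94.0 CPM (adjusted p = 0.715). A1/A2 library 3 alone was high. Among members too rare for the test, Adgre1, which encodes F4/80, had 48 transcripts in all 4 A2 libraries and 0 on the EMP side. That is at least 7.58-fold higher against 3 counts over the EMP side. Trem2 had 38 against 0, at least 6-fold, and Stab1 93 against 1, a ratio of 44.1 (7.72 to 1760). Without the filter on low counts, 8 of 18 were higher, beside 6.26% of 17309 genes. On the EMP side 7 of the 18 had no transcript, so these could be called only as higher.

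All 3 tested complement genes of 8 were higher (11.3% of all tested genes), and they were the leading ones above. The others were rare: C1qa, the remaining C1q chain, had 128 transcripts against 0 (at least 20.2-fold), C5ar1 90 against 4 and properdin (Cfp) 82 against 7. Of 15 Fc receptors and signalling adaptors, 8 were tested, 6 were higher and 1 lower (11.3% and 9.98% of all tested genes). Lyn, a Src family kinase, had 141, 147, 172 and 163 CPM against 66.9, 60.5, 80.7 and 67.6 CPM (1.16 ± 0.17, adjusted p = 1.78e-05). Fcgr3, a low-affinity receptor, had 96.1, 94.4, 102 and 99.6 CPM against 59.2, 35.0, 71.8 and 94.0 CPM, and its call (0.61 ± 0.21, adjusted p = 0.0446) was lost without any single library other than EMP library 4, with adjusted p of 0.0516 to 0.172, and with 1 endoderm limit (0.358). The lower one was the kinase Syk, named here after its value was seen (-0.65 ± 0.21, adjusted p = 0.0267).

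Of the 6 oxidase genes, 4 of 5 tested were higher and none lower (11.3% and 9.98% of all tested genes). Beside Cybb, its membrane partner Cyba had 123, 119, 182 and 141 CPM against 72.1, 51.0, 35.9 and 37.6 CPM (1.44 ± 0.22, adjusted p = 2.06e-05). Ncf1, a cytosolic subunit named after its value was seen, was higher by 1.83 ± 0.39. Cyba was at 181 (A1/A2) and 140 CPM (EMP) in endoderm-rich wells. Of 15 chemokine genes Ccl3 alone was tested. Below the filter, Ccl6 had 249 transcripts against 3 (ratio 39.3, with a lower bound of 13.3), Ccl9 99 against 1 (46.9, 8.23 to 1870), and the receptor Ccr1 36 against 0. Pf4, known from both megakaryocytes and macrophages, had 45 transcripts on each side, which is 2.11-fold more in EMP wells per transcript summed (1.36 to 3.26).

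Cytokine receptors were split. Of 11 tested of 20, 4 were higher, 1 was lower (11.3% and 9.98% of all tested genes) and 6 did not pass. The receptors of tumour necrosis factor were both higher: Tnfrsf1b had 46.6, 59.3, 44.6 and 72.8 CPM against 12.9, 12.7, 15.0 and 11.3 CPM (2.09 ± 0.32, adjusted p = 2.35e-05), and Tnfrsf1a 87.5, 72.8, 108 and 89.2 CPM against 25.7, 19.1, 32.9 and 41.3 CPM (1.57 ± 0.25, adjusted p = 3.76e-05). The others, named after their values were seen, were Il6ra (2.59 ± 0.53) and Tgfbr2 (1.85 ± 0.34). The receptors of granulocyte growth factors did not pass. Csf2ra had 35.2, 40.4, 31.9 and 59.4 CPM against 18.0, 22.3, 35.9 and 18.8 CPM (0.82 ± 0.31, adjusted p = 0.0619), with overlapping libraries. Csf3r had 57.1, 48.5, 54.2 and 53.5 CPM against 25.7, 38.2, 35.9 and 45.1 CPM (0.59 ± 0.25, adjusted p = 0.0981), without overlap.

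Myeloid transcription factors were higher in 7 of 10 tested of 20, and 1 was lower (11.3% and 9.98% of all tested genes). Spi1, which encodes PU.1, had 108, 119, 140 and 193 CPM against 25.7, 38.2, 74.8 and 37.6 CPM (1.65 ± 0.28, adjusted p = 0.000274). It was thus present in the EMP sums of all 4 libraries. Irf8, a partner of PU.1 in macrophages, had 264, 236, 201 and 288 CPM against 82.4, 19.1, 123 and 18.8 CPM (1.97 ± 0.47, adjusted p = 0.0272). Its EMP libraries fell into high ones (1 and 3) and low ones (2 and 4), and the call was lost when A1/A2 library 1, 2 or 4 or EMP library 1 was left out (adjusted p 0.0534 to 0.0648). Irf5, a factor of inflammatory gene expression, had 52.3, 55.3, 57.3 and 86.2 CPM against 18.0, 3.19, 5.98 and 0 CPM (3.0 ± 0.43, adjusted p = 1.31e-05, 4.16 without EMP library 1 and 3.99 with 1 endoderm limit). Id2, an inhibitor of helix-loop-helix factors, was the lower one, at 27.6, 27.0, 31.9 and 28.2 CPM against 85.0, 118, 53.8 and 113 CPM (-1.69 ± 0.25, adjusted p = 1.79e-05). In wells rich in endoderm transcripts it was at 510 CPM (A1/A2 libraries) and 575 CPM (EMP libraries), and with 1 endoderm limit for both sides it was not tested.

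Progenitor transcription factors were lower in gated A2 wells in 11 of 18 tested of 25, and none was higher. These calls stand beside 9.98% lower and 11.3% higher of all tested genes. Beside Mycn, Gata2 and Ikzf2, Tal1, a master factor of blood formation, had 59.0, 62.0, 54.2 and 40.1 CPM against 183, 223, 141 and 132 CPM (-1.65 ± 0.20, adjusted p = 8.91e-07), and it remained present in every A2 library. The other lower members, named after their values were seen, were Myb (-2.50 ± 0.35), Meis1, Gfi1b (-3.49 ± 0.43), Nfe2, Zfpm1, Etv6 and Cbfa2t3. Factors that did not pass were Myc (-0.17 ± 0.20), Lmo2 (0.25 ± 0.20), Ldb1 (-0.01 ± 0.26), Lyl1, Fli1, Ikzf1 and Hhex. Gata1 and Erg missed the filter. Gata1, the erythroid and megakaryocyte factor, had 86 transcripts in EMP against 6 in A2 wells (ratio 30.3, 13.3 to 84.7), with 74.7, 108, 62.8 and 7.52 CPM over the EMP libraries, and Erg, a stem cell factor, 59 against 1 (125, 21.5 to 5000). Without the filter, 13 members were lower and 1 higher, beside 4.28% and 6.26% of all genes.

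Progenitor surface genes were lower in 5 and higher in 2 of 11 tested of 16 (9.98% and 11.3% of all tested genes). Angpt1, the ligand of the receptor Tie2, had 6.66, 9.44, 3.19 and 11.9 CPM against 82.4, 41.4, 44.9 and 75.2 CPM (-2.85 ± 0.35, adjusted p = 1.55e-06). Nrgn, a calmodulin-binding protein, had 26.6, 20.2, 15.9 and 23.8 CPM against 90.1, 175, 144 and 78.9 CPM (-2.41 ± 0.26, adjusted p = 2.08e-07). Cd34, the classical progenitor surface marker, did not pass: it had 147, 94.4, 131 and 99.6 CPM against 178, 92.4, 185 and 244 CPM (-0.56 ± 0.24, adjusted p = 0.115), with the lowest value of all in EMP library 2. With 1 endoderm limit for both sides it passed, at -0.77 and an adjusted p of 0.0133. Adgrg1, Itgb3 (-2.43 ± 0.36) and Pcdh7 (-2.33 ± 0.45) were the other lower members. The higher ones, named with Itgb3 and Pcdh7 after their values were seen, were Cd44 (0.86 ± 0.17) and Ly6e (1.01 ± 0.13).

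Megakaryocyte genes were lower in 5 of 6 tested of 18 and higher in none (9.98% and 11.3% of all tested genes). Itga2b, which encodes the integrin CD41, had 9.51, 20.2, 9.56 and 19.3 CPM against 106, 82.8, 141 and 82.7 CPM (-2.78 ± 0.28, adjusted p = 7.22e-08). Clec1b, the podoplanin receptor of platelets, had 2.85, 1.35, 3.19 and 4.46 CPM against 46.3, 47.8, 38.9 and 48.9 CPM (-3.87 ± 0.44, adjusted p = 4.21e-07). Rap1b, a small GTPase used in platelets and in many other cells, was lower by less, at 481, 503, 522 and 458 CPM against 801, 1050, 990 and 646 CPM (-0.84 ± 0.12, adjusted p = 2.1e-05). F2r, given above, and Mmrn1 (-2.90 ± 0.51), named after its value was seen, were the other lower members. Of the platelet glycoprotein genes below the filter, Gp1bb had 28 EMP transcripts against 0, Gp5 7 against 0, Gp9 22 against 6 and Gp1ba 2 against 0, while Gp6 had 0 against 1 A2 transcript. F2rl2, a further thrombin receptor gene, had 26 against 0. Without the filter, 10 of 17 members with a count were lower, beside 4.28% of 17309 genes. On the A2 side 6 of the 17 had no transcript, so these could be called only as lower.

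Genes of erythroid commitment were mostly too rare to test. Of 14, Car2 and Tfrc were tested. Car2, given above, was lower in gated A2 wells (-4.30 ± 0.21). Tfrc, the transferrin receptor, did not pass, at 63.8, 41.8, 60.5 and 46.1 CPM against 59.2, 44.6, 38.9 and 41.3 CPM (0.18 ± 0.25, adjusted p = 0.654). None of 4 tested globin genes of 7 passed. Hbb-y, an embryonic beta globin, had 39.0, 140, 296 and 56.5 CPM against 160, 162, 56.8 and 180 CPM (-0.26 ± 0.74, adjusted p = 0.85). The A2 libraries varied more between themselves than from the EMP libraries, and Hba-x, an embryonic alpha globin, ranged from 32.7 to 561 CPM within them. Globin transcripts were far more abundant in endoderm-rich wells, with Hbb-y at 1680 CPM in the A1/A2 and 566 CPM in the EMP libraries.

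Of the genes of primary granules, 1 of 4 tested of 10 was higher (11.3% of all tested genes). Lyz1, a lysozyme, had 147, 67.4, 137 and 153 CPM against 41.2, 22.3, 38.9 and 60.1 CPM (1.65 ± 0.31, adjusted p = 0.00115). Mpo, the myeloperoxidase of granulocyte and monocyte progenitors, had 81.8, 41.8, 108 and 62.4 CPM against 36.0, 127, 185 and 124 CPM (-0.72 ± 0.49, adjusted p = 0.363). Prtn3, a serine protease of the same granules, had 254, 133, 159 and 193 CPM against 54.1, 108, 191 and 162 CPM (0.58 ± 0.38, adjusted p = 0.353). Both proteins' transcripts were present in all 8 libraries, and their libraries overlapped. With the strict gate, which also asked for no Kit transcript in A2 wells and for no Cx3cr1 or Csf1r transcript in EMP wells, Prtn3 passed (1.32, adjusted p = 4.39e-05) and Mpo did not.

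Lysosomal genes showed a partial difference. Of 18 tested of 20, 5 were higher and 1 lower (11.3% and 9.98% of all tested genes). The median log2 fold change of the tested members was 0.35 beside -0.02 for all tested genes. Ctsc, the cathepsin that activates granule proteases, had 447, 423, 500 and 486 CPM against 180, 137, 123 and 143 CPM (1.66 ± 0.13, adjusted p = 1.27e-09). Ctsz had 208, 232, 303 and 266 CPM against 116, 92.4, 56.8 and 60.1 CPM (1.58 ± 0.19, adjusted p = 1.61e-06), and Psap, the precursor of the saposins, 84.7, 91.7, 198 and 93.6 CPM against 23.2, 25.5, 32.9 and 22.5 CPM (2.04 ± 0.31, adjusted p = 7.64e-05). Ctsc and Ctsz were higher by 2.25 and 2.46 with 1 endoderm limit. The call of Ctsa (0.60 ± 0.22, adjusted p = 0.049) was lost when A1/A2 library 1, 3 or 4, or any of EMP libraries 1 to 3, was left out (0.0516 to 0.207). The lower member, named after its value was seen, was Cd63 (-0.83 ± 0.14). Ctsb did not pass (0.61 ± 0.23, adjusted p = 0.0884), but did with 1 endoderm limit for both sides (1.65, adjusted p = 0.000451). Its transcripts stood at 1210 and 1490 CPM in endoderm-rich wells of the A1/A2 and EMP libraries, against 248 to 733 CPM in the gated wells. With that 1 limit, 9 of 16 tested lysosomal genes were higher and none was lower, beside 9.7% and 6.48% of all genes tested.

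Genes for the uptake of dying cells were higher in 2 of 4 tested of 10 (11.3% of all tested genes). Gas6, the bridging ligand of the receptors Tyro3, Axl and Mertk, had 75.2, 135, 73.3 and 44.6 CPM against 2.57, 31.9, 15.0 and 3.76 CPM (2.64 ± 0.61, adjusted p = 0.0137, and 3.52 without EMP library 2), and it did not pass with 1 endoderm limit (adjusted p = 0.157). Lrp1, a large endocytic receptor, had 39.0, 37.8, 38.2 and 44.6 CPM against 10.3, 12.7, 5.98 and 0 CPM (2.35 ± 0.42, adjusted p = 0.000141). Its log2 fold change was 4.74 with 1 endoderm limit, and it stood at 36.3 (A1/A2) and 20.2 CPM (EMP) in endoderm-rich wells. Pros1, the other ligand of these receptors, did not pass (0.10 ± 0.21, adjusted p = 0.772), nor did the engulfment adaptor Elmo1 (0.43 ± 0.23, adjusted p = 0.203). The rare members went both ways. The receptor Mertk had 41 A2 transcripts against 2 (ratio 9.71, 2.52 to 82.9), Axl 35 against 4 and the integrin chain Itgb5 54 against 4. Mfge8, a bridging protein, had 39 EMP transcripts against 18 in A2 wells, 4.57-fold more per transcript summed (2.55 to 8.49), and Dock1 39 against 44, 1.87-fold more (1.18 to 2.95).

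Lipid handling genes were higher in 4 of 6 tested of 14 and lower in 1 (11.3% and 9.98% of all tested genes). Beside Lpl, Plin2, a coat protein of lipid droplets, had 227, 267, 220 and 152 CPM against 90.1, 89.2, 126 and 63.9 CPM (1.22 ± 0.20, adjusted p = 7.64e-05). Fabp5, a fatty acid binding protein, had 80.9, 82.2, 82.8 and 113 CPM against 59.2, 38.2, 47.8 and 15.0 CPM (1.10 ± 0.25, adjusted p = 0.00241), and Scarb1, a lipoprotein receptor, 0.99 ± 0.23. Apoe was the lower member, at 635, 640, 682 and 886 CPM against 1510, 2300, 1010 and 1680 CPM (-1.19 ± 0.26, adjusted p = 0.0173). It was also an abundant transcript of endoderm-rich wells, at 4460 and 6910 CPM, and its adjusted p was 0.0576 with 1 endoderm limit and 0.0524 without A1/A2 library 2.

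Genes later used to tell microglia from border macrophages were mostly too rare to test. Of 12 microglia genes, 2 of 3 tested were higher (11.3% of all tested genes). Among them was Cst3, a cathepsin inhibitor (1.25 ± 0.16, adjusted p = 5.26e-06). Sparc, a matrix protein also made by endoderm, did not pass (-1.03 ± 0.62, adjusted p = 0.313). P2ry12, the receptor by which mature microglia are recognised, had 19 transcripts against 0, at least 3-fold, and Fcrls had 77 against 5 (ratio 7.3, 3 to 23.1). Sall1, a transcription factor of microglia, had 7 EMP transcripts against 2 (ratio 7.39, 1.41 to 72.9), and Tmem119 had 1 on each side. Of 12 border macrophage genes, Mrc1 was higher, and Dab2, an endocytic adaptor, did not pass at 524, 746, 965 and 474 CPM against 366, 659, 191 and 334 CPM (0.79 ± 0.41, adjusted p = 0.247). With 1 endoderm limit Dab2 passed (2.16, adjusted p = 0.00146). Ms4a6c had 78 transcripts against 1 (ratio 37, 6.44 to 1480). Both sets of genes therefore had members on the A2 side. Within the gated A2 wells, 45 of 74 held Mrc1 and C1qb transcripts together, 26 C1qb alone, 1 Mrc1 alone and 2 neither. C1qb is in neither of these lists and was found in 71 of the 74 wells. The joint count therefore does not show whether genes of both sets occur in the same wells.

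Genes of the leukocyte cytoskeleton were higher in 11 of 16 tested of 18 and lower in none (11.3% and 9.98% of all tested genes). Tmsb4x, the actin-binding thymosin, was among the most abundant transcripts, with 4860, 5120, 5370 and 5590 CPM against 1630, 1150, 1690 and 1470 CPM (1.82 ± 0.10, adjusted p = 3.47e-12). Libraries of a side differed little beside that gap. Coro1a, an actin regulator of white blood cells, had 422, 419, 570 and 560 CPM against 74.7, 89.2, 161 and 199 CPM (1.93 ± 0.28, adjusted p = 0.0013), and Lcp1, a bundling protein, 548, 615, 656 and 645 CPM against 257, 191, 365 and 207 CPM (1.26 ± 0.15, adjusted p = 5.16e-06). Arpc1b and Arhgdib were higher by 1.11 ± 0.15 and 1.02 ± 0.15. Under each of 3 scalings (TMM, DESeq2 size factors in edgeR and DESeq2 itself) all of these named genes were called.

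Of 20 proliferation genes, all tested, 3 were lower and 1 higher, near the 9.98% and 11.3% of all tested genes. Mki67, expressed in cycling cells, had 328, 306, 268 and 266 CPM against 433, 347, 329 and 199 CPM (-0.17 ± 0.17, adjusted p = 0.521). Ccnb2 and Cdk1, of the entry into mitosis, were lower by modest amounts (-0.86 ± 0.15 and -0.66 ± 0.12, adjusted p = 0.000141 and 0.000285). Top2a (-0.50 ± 0.17, adjusted p = 0.0453) and Pcna (0.80 ± 0.25, adjusted p = 0.0394) passed with overlapping libraries, but not with 1 endoderm limit (adjusted p = 0.0809 and 0.0688). Each lost its call without any 1 of 6 libraries, at adjusted p of up to 0.15 for Top2a (all but A1/A2 library 2 and EMP library 4) and of up to 0.119 for Pcna (all but A1/A2 library 2 and EMP library 3).

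Of 7 tested genes of the cyclin list, 1 was higher and 2 were lower (11.3% and 9.98% of all tested genes). The D-type cyclins all had more transcripts on the A2 side. Ccnd2 had 1510, 1180, 685 and 1470 CPM against 741, 153, 472 and 248 CPM and did not pass (1.57 ± 0.51, adjusted p = 0.0804), although it passed with 1 endoderm limit (adjusted p = 0.0225) and with the strict gate (adjusted p = 0.000315). Ccnd3 passed narrowly (0.84 ± 0.30, adjusted p = 0.0461), but not without A1/A2 library 3 or 4 or EMP library 1, 3 or 4 (up to 0.191), nor with 1 endoderm limit (0.0783). Ccnd1, below the filter, had 117 transcripts against 10 (ratio 5.54, 2.91 to 11.9). Cdkn1c, an imprinted inhibitor of cyclin-dependent kinases, was lower, at 21.9, 32.4, 57.3 and 56.5 CPM against 185, 210, 92.7 and 113 CPM (-1.97 ± 0.35, adjusted p = 0.00233). It was at 665 and 687 CPM in endoderm-rich wells and did not pass with 1 endoderm limit (adjusted p = 0.156). Cdk4 was lower by -0.34 ± 0.10 on the log2 scale (adjusted p = 0.0187), a call lost without A1/A2 library 1 or 4 or EMP library 3 (up to 0.0778).

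Among 12 genes of the fetal growth program, 11 were tested, 3 lower and 2 higher (9.98% and 11.3% of all tested genes). Hmga2, a chromatin protein of fetal stem cells, had 390, 392, 255 and 331 CPM against 906, 940, 897 and 1060 CPM (-1.45 ± 0.12, adjusted p = 1.77e-09), and the sides were well apart. Hmga1, its relative, differed in the other direction, at 153, 179, 226 and 236 CPM against 129, 108, 86.7 and 132 CPM (0.78 ± 0.17, adjusted p = 0.00168). The repressors of let-7 were unlike each other. Lin28a was lower (-1.23 ± 0.28, adjusted p = 0.0019), but not with 1 endoderm limit (adjusted p = 0.255), and it was at 209 and 308 CPM in endoderm-rich wells. Lin28b had 74.2, 79.5, 89.2 and 56.5 CPM against 85.0, 63.7, 89.7 and 82.7 CPM and did not pass (-0.13 ± 0.20, adjusted p = 0.688). Igf2bp1, an RNA-binding protein, was higher (0.53 ± 0.12, adjusted p = 0.00139), while its relative Igf2bp2, named after its value was seen, was lower (-0.65 ± 0.17).

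Of 20 ribosome biogenesis genes, 4 were higher and 16 did not pass, beside 11.3% higher of all tested genes. With 1 endoderm limit 1 of the 20 was higher (9.7% of all genes tested there), and with the strict gate 2 (10.8%). Nop58, a core protein of box C/D particles, had 537, 539, 456 and 520 CPM against 368, 373, 359 and 436 CPM (0.43 ± 0.11, adjusted p = 0.00678), while its partner Nop56 did not pass (0.17 ± 0.12, adjusted p = 0.334). The calls of Noc2l (1.17 ± 0.33) and Nop2 (0.46 ± 0.15) were lost without EMP library 1 or 2 (0.0547 to 0.0858), and that of Nop2 also without A1/A2 library 1 or 4 or EMP library 3. Neither passed with 1 endoderm limit (adjusted p = 0.0895 and 0.288). Of the interferon response genes, 2 of 4 tested of 12 were higher (11.3% of all tested genes). Ifitm3, an antiviral membrane protein, had 115, 113, 131 and 122 CPM against 23.2, 9.56, 23.9 and 3.76 CPM (2.87 ± 0.28, adjusted p = 3.43e-08), and Bst2 (1.32 ± 0.36, adjusted p = 0.0144) lost its call without EMP library 2 (0.0583). Members below the filter lay on the A2 side, with Isg15 at 64 transcripts against 0 and Irf7 at 49 against 0. Without the filter 9 of 12 were higher, beside 6.26% of 17309 genes. On the EMP side 7 of the 12 had no transcript, so these could be called only as higher. Isg15 varied among the A2 libraries, at 42.8, 1.35, 6.37 and 23.8 CPM.

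Immediate early genes, which can also rise while tissue is dissociated, were higher in 2 of 6 tested of 15 (11.3% of all tested genes). Jun had 66.6, 86.3, 57.3 and 111 CPM against 12.9, 3.19, 2.99 and 7.52 CPM (3.52 ± 0.39, adjusted p = 2.55e-07, and 4.15 without EMP library 1). Zfp36 was higher by 0.98 ± 0.31, a call lost without A1/A2 library 2 or EMP library 1 or 3 (0.0581 to 0.0691). Ier2 (0.53 ± 0.29) and Jund (0.14 ± 0.23) did not pass. Fos had 27 transcripts against 2 (ratio 6.4, 1.61 to 55.5) and Egr1 26 against 0. The part of handling in these values was not tested.

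**Figure D3:**
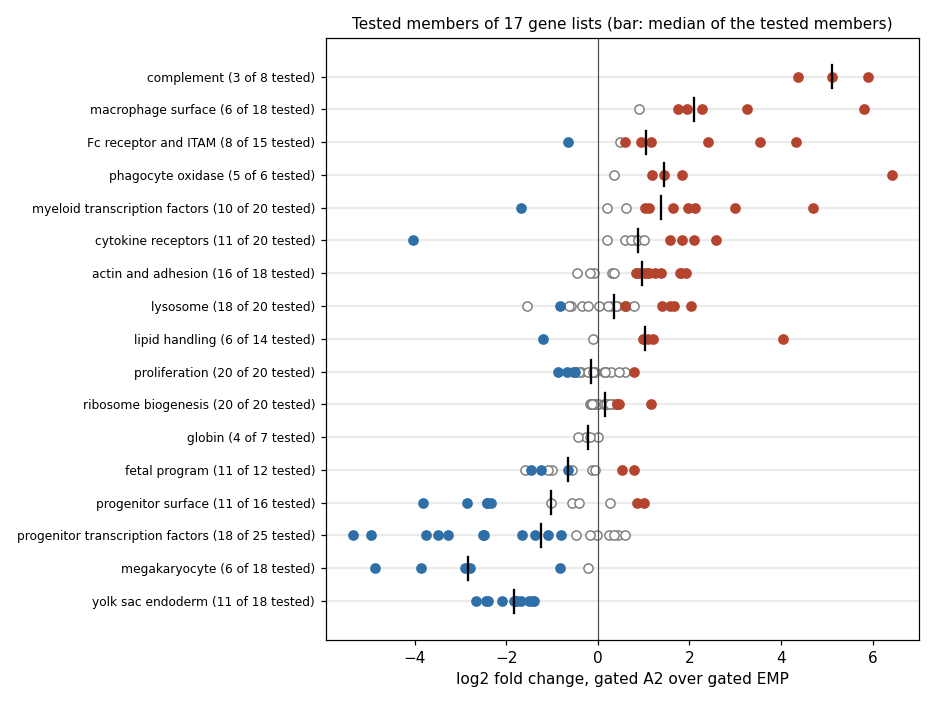
Log2 fold change (x axis, gated A2 over gated EMP) of the tested members of 17 gene lists, 1 row per list. Filled red and blue circles are members that were higher and lower, open circles did not pass, and the bar is the median of the tested members. Complement and macrophage surface genes lie to the right, with medians of 5.12 and 2.11, and megakaryocyte and yolk sac endoderm genes to the left, with medians of -2.84 and -1.82.

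Markers of other cell types were looked at on both sides. Yolk sac endoderm genes outside the gate were lower in gated A2 wells in all 11 tested of 18 (9.98% of all tested genes). Their median was -1.82. Afp had 169, 276, 379 and 305 CPM against 1110, 1340, 682 and 725 CPM (-1.82 ± 0.33, adjusted p = 0.00977), beside 8270 and 7510 CPM in endoderm-rich wells of the A1/A2 and EMP libraries. The summed level of the list ran from 486 to 1060 CPM in the A2 and from 2150 to 3760 CPM in the EMP libraries. With 1 endoderm limit for both sides, which left 33 EMP wells, none of 8 tested passed, and their median was -0.36. These values moved with the limit that chose the wells.

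Other endothelial genes also lay on the EMP side, although wells with Cdh5 or Plvap transcripts had been left out there. Tie1, a receptor of endothelial cells that early progenitors share, had 17.1, 22.9, 6.37 and 20.8 CPM against 103, 105, 111 and 188 CPM (-2.76 ± 0.27, adjusted p = 3.6e-08), and Egfl7 did not pass (-0.24 ± 0.24). Kdr, below the filter, had 61 EMP transcripts against 2. The summed list ran from 108 to 123 CPM in the A2 and from 306 to 515 CPM in the EMP libraries. Mesenchymal transcripts were uneven in both groups: Col1a1 had 154, 462, 3.19 and 2.97 CPM in the A2 libraries and 10.3, 245, 5.98 and 18.8 CPM in the EMP libraries, so that library 2 was highest on each side. No member of that list was tested, and without the filter 1 of 12 was lower (4.28% of all genes). Its part in the other results was not tested.

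Some genes listed as markers of other leukocytes were higher on the A2 side. Plac8 and Hp, of the monocyte list, were higher: Plac8 had 312, 311, 363 and 348 CPM against 72.1, 19.1, 38.9 and 26.3 CPM (3.01 ± 0.23, adjusted p = 1.8e-08), and Hp 73.3, 59.3, 35.0 and 92.1 CPM against 15.4, 9.56, 29.9 and 0 CPM (2.21 ± 0.45, adjusted p = 0.00217, and 2.87 without EMP library 3). Fn1 did not pass (-0.68 ± 0.34), and Ly6c2 had 13 transcripts against 0. Of the neutrophil list, the chemokine receptor Cxcr2 was higher at 127, 98.4, 105 and 126 CPM against 51.5, 31.9, 71.8 and 37.6 CPM (1.23 ± 0.22, adjusted p = 0.000146), while 4 of its 9 listed genes present in the tables were at 0 in the A2 sums. Class II histocompatibility genes came unevenly from the A2 libraries: Cd74 had 34.3, 0, 35.0 and 263 CPM against 0 in every EMP library, and did not pass without the filter (adjusted p = 0.47). The immunoglobulin gene Ighm had 132 transcripts against 4 (ratio 15.6, 5.96 to 58.2), in all 4 A2 libraries. None of 3 tested erythroid markers passed, and of the mast cell, lymphoid and class II lists no member was tested. The part of other leukocytes in these values was not tested.

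Some wells met the gate of the other side. In the A1/A2 libraries, 14 wells met the EMP gate and not the A2 gate (2, 1, 6 and 5 in libraries 1 to 4). In the EMP libraries, 7 met the A2 gate and not the EMP gate (4, 1, 1 and 1). Their transcripts were summed over libraries, so they carry no replicate error and no test. The sums were also uneven. Of the 674638 transcripts of the 14 wells, A1/A2 libraries 3 and 4 gave 329315 and 280520. Of the 284789 transcripts of the 7 wells, the single well of EMP library 3 gave 112041. All 12 leading higher genes were nearer to the A2 mean than to the EMP mean in the 14 EMP-gate wells of the A1/A2 libraries (on log2 of CPM plus 1). In the 7 A2-gate wells of the EMP libraries, 3 of the 12 were nearer to the A2 mean and 9 to the EMP mean. C1qb was at 269 CPM in the former and 85.3 CPM in the latter, Ccl3 at 44.5 and 0 CPM, and Lpl at 419 and 136 CPM.

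The 12 leading lower genes were less one-sided. In the EMP-gate wells of the A1/A2 libraries, 5 were nearer to the A2 mean and 7 to the EMP mean, and in the A2-gate wells of the EMP libraries 2 and 10. In both sets of wells, 0 of the 12 lay within the range of the gated A2 libraries. Gata2 was nearer to the mean of its gate, with 139 CPM in the former and 15.5 CPM (4 transcripts) in the latter. So was Car2, at 230 and 58.1 CPM. The values of 15.5 and 58.1 CPM lay above every gated A2 library (2.7 to 6.37 CPM for Gata2, 12.4 to 16.2 CPM for Car2). Mycn was nearer to the mean of its kind of library, at 3.18 (2 transcripts) and 92.9 CPM. The 14 wells were not a clean progenitor set, since Hbb-y stood at 5470 CPM in them.

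**Figure D4:**
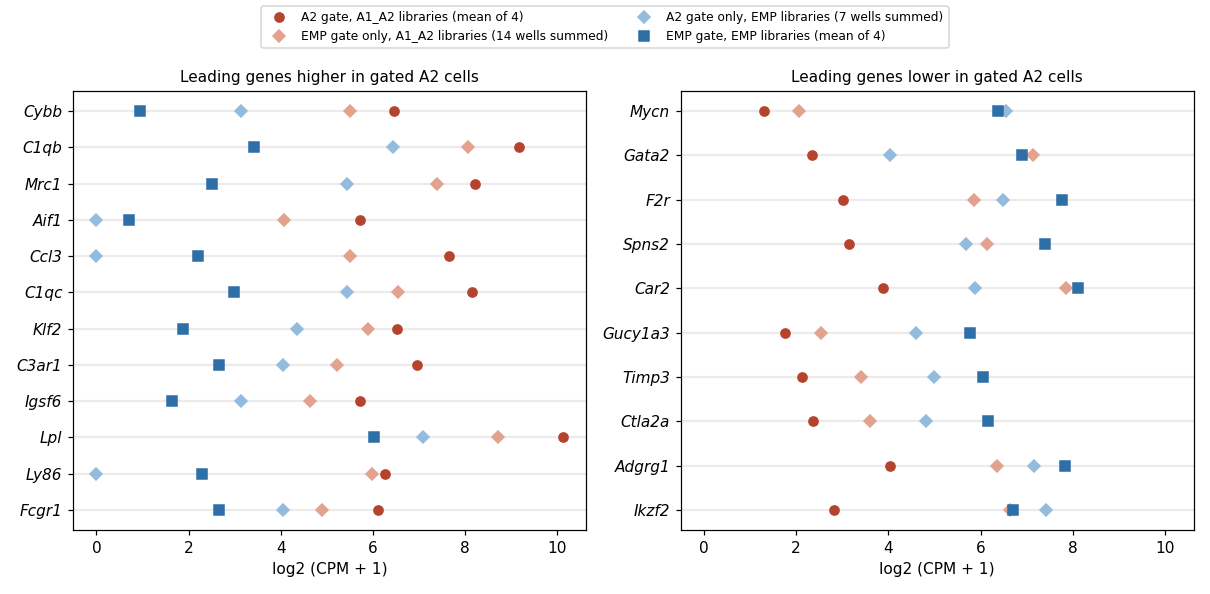
Level (log2 of CPM plus 1, x axis) of the 12 leading higher and 10 of the 12 leading lower genes by gate and kind of library. Red circles and blue squares are the means of 4 libraries of the gated A2 and gated EMP sums; light red and light blue diamonds are the sums of the 14 EMP-gate wells of the A1/A2 libraries and of the 7 A2-gate wells of the EMP libraries. In the left panel every light red diamond lies nearer to the red circle than to the blue square.

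Endoderm-rich wells, the highest 25% by endoderm transcripts, give a background for these values. In the A1/A2 libraries these 77 wells had C1qb at 106 CPM and Lpl at 199 CPM, and in the EMP libraries 127 such wells had 7.35 and 20.4 CPM. Mrc1 was at 13.3 and 6.89 CPM, and Mycn at 12.2 and 28.5 CPM. These wells were chosen by endoderm transcripts alone, and after thinning 13 of the 77 held a Csf1r and 6 a Cx3cr1 transcript. The kind of library and the gated cell type cannot be told apart for these genes by this design. With the strict gate, 528 genes were higher and 444 lower of 4870 (10.8% and 9.12%), and the leading genes kept their direction, save Aif1, Igsf6, Gata2, Gucy1a3 and Timp3, which were not tested there. Of those tested, Ccl3 did not pass (adjusted p = 0.129).

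Shares of wells with a transcript were compared at a single depth, since A2 wells were deeper. After each gated well was thinned to 5000 transcripts, 11 of 16 genes differed between the 4 libraries of each side by a two-sided exact permutation test (adjusted p = 0.0416 over the 16 genes, exact p = 0.0286, the smallest that 70 assignments allow). That is 68.8% of the 16, 8 higher (50%) and 3 lower (18.8%), and the 16 were chosen for the lineages. C1qb transcripts were found in 74.5% ± 0.647 (SD, n = 4) of gated A2 wells and in 0 of 48 gated EMP wells. At this depth, and for counting error only over the pooled wells, that allows a share of up to 6.25%. At full depth the transcript was found in 97.1% and 20.9%, so the limit does not hold there. The endoderm-rich wells gave 31.2% (24 of 77) in the A1/A2 and 3.15% (4 of 127) in the EMP libraries.

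Irf8 was found in 63.4% ± 7.76 of gated A2 and 12.7% ± 10.8 of gated EMP wells, beside 19.5% (A1/A2) and 9.45% (EMP) of endoderm-rich wells. The EMP share is near that background. Tyrobp, a signalling adaptor of myeloid receptors, was found in 58.4% ± 6.06 against 14.2% ± 11.1, Ptprc in 46.8% ± 7.9 against 6.35% ± 7.65, and Mrc1 in 44.7% ± 15.4 against 4.01% ± 4.63. Spi1 was found in 38.4% ± 12.2 against 11.9% ± 10.1, Itgam in 28.9% ± 10.3 against 4.42% ± 5.19, and Fcgr1 in 26.8% ± 15.7 against 4.42% ± 5.19. In each of these the libraries of both sides did not overlap. Endoderm-rich wells of the EMP libraries had Spi1 in 2.36%, Mrc1 in 3.15% and Fcgr1 in 2.36%, so that the EMP shares of Mrc1 and Fcgr1 were close to background.

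On the progenitor side, Myb was found in 33.5% ± 11.6 of gated EMP and 7.37% ± 5.52 of gated A2 wells, Mycn in 26.8% ± 6.29 against 1.61% ± 3.23, and Gfi1b in 20.5% ± 12.9 against 2.12% ± 2.59. These 3 passed. Mycn was also in 9.45% of endoderm-rich EMP-library wells and in 6.49% of those of the A1/A2 libraries. Gata2 (28.2% ± 19.4 against 5.49% ± 5.32) and Itga2b (30.7% ± 16.3 against 3.44% ± 4.96) had an adjusted p of 0.0703 by the exact test, since their libraries overlapped at this depth, and Gata1 one of 0.163. Cd34 was found in 44.0% ± 27.1 against 36.1% ± 3.31 (adjusted p = 0.714) and ranged from 23.1% to 80.0% among the EMP libraries. Adgre1 was found in 6.3% ± 8.84 of gated A2 wells and in 0 of 48 EMP wells (adjusted p = 0.457). Without thinning, 18 of 48 EMP wells held Gata2 and Spi1 transcripts together, 17 Gata2 alone, 6 Spi1 alone and 7 neither. Gata2 had 154 and Spi1 57 transcripts over these wells, so a well without a transcript may still have expressed the gene. Whether the genes were found together more or less often than by chance was not tested.

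**Figure D5:**
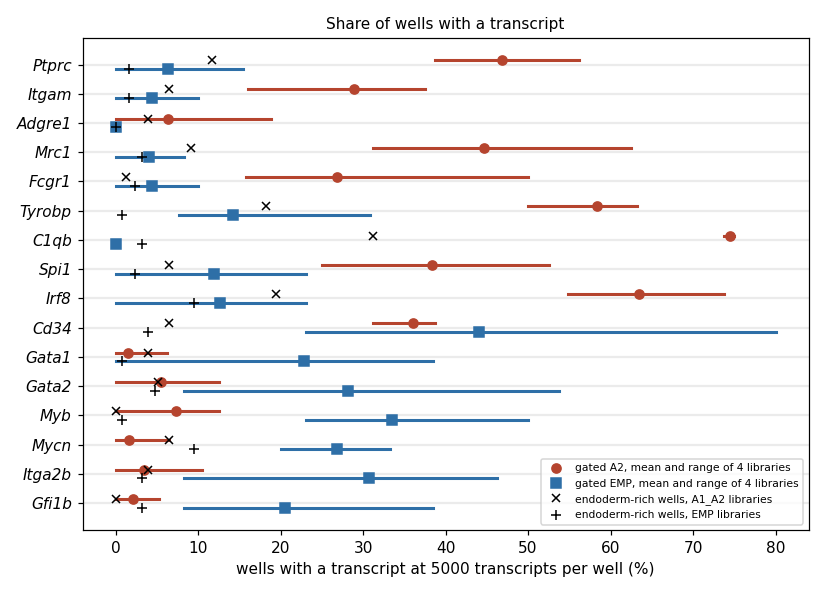
Share of wells with at least 1 transcript (x axis, percent) after thinning to 5000 transcripts per well. Symbols are the means and lines the ranges of 4 libraries, red for gated A2 and blue for gated EMP, and crosses and plus signs are the endoderm-rich wells of the A1/A2 and EMP libraries. The bars of both sides are apart for C1qb, at 74.5% and 0%, and overlap for Cd34.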

How the data were processed

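Single cells of 8 libraries were profiled by mCEL-Seq2. The authors deposited an estimated count for each gene in each well, corrected for the 4096 possible molecular identifiers, with no scaling, as the values show. The submitters' processing notes name BWA 0.6.2-r126 and Seurat without stating their roles, and the genome build is not given in the sources used here. All 74 gated A2 wells are also in the deposited series table, whose 689 wells hold the same values as the per-library tables.

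Gated wells were summed per library, the sums were rounded to whole numbers, and the 13 gating genes were left out. The 4 A2 and 4 EMP sums were compared in edgeR 4.0.16 (R 4.3.3; TMM, filterByExpr, robust quasi-likelihood test, no block) with Benjamini-Hochberg adjustment over all genes tested and a threshold of 0.05. The number after ± is the standard error of the log2 fold change for genes and the SD over libraries for shares. Summed tested counts ranged from 266771 to 1054075. Shares of wells were thinned to 5000 transcripts and tested by a two-sided exact permutation test (Python 3.11.15, numpy 2.4.6, scipy 1.17.1). Ratios of transcript counts carry exact 95% intervals, and a side at 0 was set to 3 counts; intervals and such limits cover counting error only.

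The text names the 12 genes of largest fold in each direction that passed, did not overlap between sides and reached a mean of 50 CPM, leaving out unnamed gene models, and from each of 34 lists up to 3 tested members of smallest p and up to 2 that define it. Other names are said to be chosen after their values were seen, or are list members too rare to test, named for their counts. The members and lists were chosen with earlier results of these data known. On simulated data, the test recovered 80.3%, 100% and 100% of genes changed by a log2 fold of 1, 2 and 3 (66, 63 and 68 of 5256 genes) and called 10 unchanged genes. The simulated counts had only the spread common to genes of a level and none particular to a gene, so recovery in the data may be lower. Lyve1, Ccl3 and Mrc1, for instance, had standard errors of 1.44, 1.28 and 1.16 in the data. Alternatives were other normalizations and DESeq2 1.42.0, filters, gates, depths, a replicate block and each library left out. Some genes that the rule names are not reported here.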

Additional observations from a re-analysis of the deposited data

Results flagged for a closer look

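In 56 groups of 4 libraries, 6 had a library far from the other 3 by Dixon's 95% limit, which chance passes in about 1 in 20 groups. That rate does not apply to 3 of them, where the other libraries are all at 0 and any transcript passes. Cybb stood at 3.76 CPM in EMP library 4 and at 0 in the other EMP libraries. Mrc1 stood at 679 CPM in A1/A2 library 3, against 140, 165 and 204 CPM in the others. Aif1 stood at 95.6 CPM in the same library, which has 8 gated wells, against 35.1, 37.2 and 38.1 CPM. Among the EMP libraries Aif1 stood at 2.57 CPM in library 1 and at 0 in the rest. Ly86 stood at 15.4 CPM in EMP library 1 and at 0 in the rest. Mycn was lowest in EMP library 2, at 66.9 CPM against 86.4, 86.7 and 90.1 CPM.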

How the results depend on the processing

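Counts of genes called varied with the wells and the filter. Against 1163 (617 higher, 546 lower) there were 1823 without the filter on low counts, of which 1083 were higher, and the median of all genes was then 0.097. With no limit on endoderm transcripts 309 genes were lower and 67.3% of calls were higher, against 53.1%. With that limit at the lower quartile 497 were called (298 higher, 199 lower), without A1/A2 library 3 and EMP library 1, which kept 3 and 4 wells. Without the genes that wells must lack, 3270 were called (1659 and 1611), and with no gate 3676 (1916 and 1760). Thinning wells to 5000 transcripts after gating left 997 genes tested and 134 called (90 and 44; 67.2% higher), and thinning before gating 820 tested and 99 called (65 and 34; 65.7% higher). Of 2 settings chosen after seeing the data, 1 endoderm limit for both sides gave 759 (455 and 304) and 8 wells per library gave 605 (361 and 244). DESeq2 called 907. Leaving out each library in turn gave 942 to 1183 calls, 516 to 644 higher and 412 to 539 lower. For the shares of wells it gave 0 to 0 of 16 genes in place of 11, since 4 libraries against 3 cannot go below an exact p of 0.0571.

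With no gate, log2 fold changes turned direction for Rap1b (0.08), Mpo (1.26), Ctsa (-0.03), Lyve1 (-1.58) and Lin28b (0.77). Those of Ctsb (-0.32), Dab2 (-0.47) and Egfl7 (0.05) turned as well, without passing in the main fit or with no gate. With thinning before gating, those of Top2a (0.04) and Igf2bp1 (-0.01) turned. The cause was not tested. The replicate block gave 1235 calls, 673 higher and 562 lower, of which 1109 were among the 1163. Deviations of same-numbered libraries correlated at -0.031, 0.206, 0.008 and 0.039, and 0.206 was the highest over all pairs across the sides. Such correlations over all genes carry counting noise and cannot exclude pairing. The labels leave it open, and the main fit took no pairs. With the block, 110 of the named genes kept their result, 2 were weaker and 3 stronger. Its edgeR adjusted p was 2.33e-14 for Mrc1 and 8.73e-14 for Ccl3, beside 0.015 and 0.0272 without it. Leaving out wells over 3 times the median depth removed no well. The 8 wells of A1/A2 library 3 and the rarity of many lineage genes limit what could be tested.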
